A study of Mus musculus with 11 samples.

Results

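The 10 genes described here make and break down active vitamin D, receive the hormones that control renal phosphate, and carry phosphate across tubule membranes: Cyp27b1, Cyp24a1, Vdr, Pth1r, Kl, Slc34a1, Slc34a3, Slc34a2, Slc20a1 and Slc20a2. They were taken by name, as the rows whose deposited gene symbol was 1 of these 10, and all 10 were found among the 16475 Entrez genes with values. Expression was measured on Affymetrix arrays in whole kidneys of 11 young lupus-prone mice before nephritis, none with proteinuria. Of these, 7 kidneys came from NZB/W F1 mice aged 6 weeks, which the study describes as female, and 4 came from NZW/BXSB F1 mice aged 8 weeks, which it describes as male carriers of the Y-linked Yaa locus with its extra copy of Tlr7. No mouse was treated, and the kidneys were flushed with saline before harvest. The comparison open to these samples is how the genes differed between the strains before disease. The arrays of each strain also came from mice of 1 sex and 1 age, so strain, sex, age and array set cannot be told apart in any difference. In RNA from whole kidneys, fewer cells of a type and less RNA per cell cannot be told apart either.

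The kidney is the main site where circulating vitamin D is turned into its active form. CYP27B1, a hydroxylase of the proximal tubule, activates it, CYP24A1, another hydroxylase, breaks it down, and the vitamin D receptor, a nuclear receptor paired with RXR, passes the signal to genes such as Cyp24a1 itself. Parathyroid hormone acts through PTH1R and favours activation, while the bone hormone FGF23 acts through an FGF receptor joined to Klotho (Kl) and does the opposite; both hormones withdraw sodium-phosphate cotransporters from the brush border. NaPi-IIa (Slc34a1) and NaPi-IIc (Slc34a3) do most of this transport in the proximal tubule, NaPi-IIb (Slc34a2) is best known from intestine and lung, and the type III carriers PiT-1 (Slc20a1) and PiT-2 (Slc20a2) are found in many tissues.

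Promoter windows from 250 bases before to 50 bases after a transcription start were held in the RefSeq table (GRCm38.p6, the C57BL/6J reference and not either lupus strain) for 8 of the 10 genes, 11 windows in all. No window was given for Cyp24a1 and Slc20a2. Windows of 3 genes are shown because their transcripts behaved differently: Slc34a3 was the member with the largest increase in NZB/W, Cyp27b1 was lower there, and Slc34a1 was not called. Capitals mark matches to the motifs searched, on either strand the box CCAAT and the nuclear receptor half-sites AGGTCA as well as AGTTCA plus the variant GGTTCA, on the gene's strand the box TATAAA, and on either strand a pair of such half-sites 3 bases apart, the form known as a DR3 vitamin D response element. The windows run 5′ to 3′ on the gene's strand and lie at chr2:25234185-25234484 (minus strand) for Slc34a3, chr10:127047996-127048295 (plus strand) for Cyp27b1 and chr13:55399398-55399697 (plus strand) for Slc34a1.
Slc34a3: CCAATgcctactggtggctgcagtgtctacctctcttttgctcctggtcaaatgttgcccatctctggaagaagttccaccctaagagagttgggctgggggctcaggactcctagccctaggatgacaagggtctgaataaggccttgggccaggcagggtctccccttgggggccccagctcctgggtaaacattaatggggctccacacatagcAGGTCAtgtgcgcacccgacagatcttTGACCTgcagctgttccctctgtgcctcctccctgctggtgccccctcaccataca
Cyp27b1: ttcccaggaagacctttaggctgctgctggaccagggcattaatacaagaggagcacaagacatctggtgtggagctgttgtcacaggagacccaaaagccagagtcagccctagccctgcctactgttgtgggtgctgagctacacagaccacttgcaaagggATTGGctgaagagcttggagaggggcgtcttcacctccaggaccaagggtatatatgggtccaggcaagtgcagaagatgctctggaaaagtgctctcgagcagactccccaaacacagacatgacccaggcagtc
Slc34a1: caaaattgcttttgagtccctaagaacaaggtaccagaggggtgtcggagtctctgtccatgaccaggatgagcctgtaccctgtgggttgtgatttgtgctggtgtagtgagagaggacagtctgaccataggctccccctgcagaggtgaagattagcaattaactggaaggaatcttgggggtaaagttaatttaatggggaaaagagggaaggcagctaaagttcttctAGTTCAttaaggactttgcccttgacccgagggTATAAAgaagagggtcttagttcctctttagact
The Slc34a3 window opened with CCAAT and held AGGTCA 33 bases before the start and, on the other strand, again 6 bases before it. In the Cyp27b1 window the only match was a reverse CCAAT 86 bases before the start. The Slc34a1 window held AGTTCA 17 bases before the start and TATAAA 16 bases after it. Over the 32851 promoter windows of the table, CCAAT was present in 37.4%, AGGTCA in 16.3%, AGTTCA in 14.0%, GGTTCA in 10.4%, TATAAA in 8.32% and the DR3 element in 0.256%. None of the 11 windows of these genes held a DR3 element or GGTTCA. A match is a description of the reference letters, and says nothing on whether a factor was bound.

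As deposited, the log2 signals of the strains lay on different levels. The median of the 14419 tested genes was 7.38 ± 0.01 in NZB/W (n = 7), against 8.08 ± 0.04 in NZW/BXSB (n = 4; errors are SD), and the median difference over these genes, NZB/W minus NZW/BXSB, was -0.69. Values below are therefore log2 signals after quantile normalization of the 11 arrays together, called the common scale, on which the median difference of all tested genes was -0.015, and the difference in the deposited values is also given for each of the 10 genes. The study describes normalization and batch correction of all its arrays together, yet the offset stands in the files, and which scale is right could not be settled from them. Directions that turn with the scale, such as those of Slc34a2 and Slc20a2, depend on that choice. Arrays of 1 strain correlated at 0.985 to 0.997 in NZB/W, against 0.993 to 0.997 in NZW/BXSB. Xist, the transcript of the inactive X chromosome, averaged 10.57 ± 0.43 in NZB/W, against 4.65 ± 0.04 in NZW/BXSB, and the Y-linked Ddx3y averaged 3.89 ± 0.05 in NZB/W, against 8.78 ± 0.26 in NZW/BXSB. Xist was not above the authors' baseline in NZW/BXSB, nor Ddx3y in NZB/W, so the signals there are only upper bounds. All 7 proximal tubule markers, all 5 of the distal convoluted tubule and all 3 of the thick ascending limb were above the authors' baseline in both strains. On the common scale their mean signal was higher in NZB/W without overlap for each of these segments, a direction that depended on the scaling. As deposited, the median differences of the 3 lists were -0.51, -0.36 and -0.35, with 5 of 7, 4 of 5 and 3 of 3 markers called lower and 2, 0 and 0 called higher. For the proximal tubule the mean on the common scale ran over 11.67 to 11.998 in NZB/W, against 11.52 to 11.62 in NZW/BXSB, with 4 markers called higher and 2 lower in NZB/W. The 4 tubular injury markers averaged 6.40 to 7.11 per kidney in NZB/W, against 7.23 to 7.42 in NZW/BXSB, with 2 called lower in NZB/W and none higher (4 lower as deposited). The 4 adrenal cortex markers averaged 5.05 in NZB/W replicate 2, 8.68 to 10.46 in the other NZB/W kidneys and 7.41 to 8.66 in NZW/BXSB. For leukocytes, 4 tested markers averaged 8.68 to 9.06 in NZB/W, against 8.59 to 8.87 in NZW/BXSB, with 2 called higher (3 lower as deposited), and for fat, 2 tested markers averaged 8.77 to 11.06 in NZB/W, against 9.87 to 10.62 in NZW/BXSB, with neither called (2 lower as deposited). The part of these cell markers in the results below was not tested.

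Of the 10 genes, all above baseline in both strains, 3 were higher and 5 were lower in NZB/W at a Benjamini-Hochberg adjusted p below 0.05 (limma), and Pth1r and Slc34a1 were not called. The background was high, with 33.3% of all tested genes higher and 36.1% lower, and 8 calls among 10 genes is near it. The kidneys of the strains did not overlap for 5 of the 10, against 54.6% of all tested genes. The median difference of the 10 was -0.19. In the deposited values the counts were 1 higher and 8 lower, beside a background of 5.56% higher and 84% lower. With the study's own fold limits (at least 1.4 or at most 0.7, here with an adjusted p of at most 0.001), Slc34a3 and Slc34a2 were called higher and Cyp24a1 lower, beside 14.3% and 13.6% of all tested genes in those directions.

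**Figure D1:**
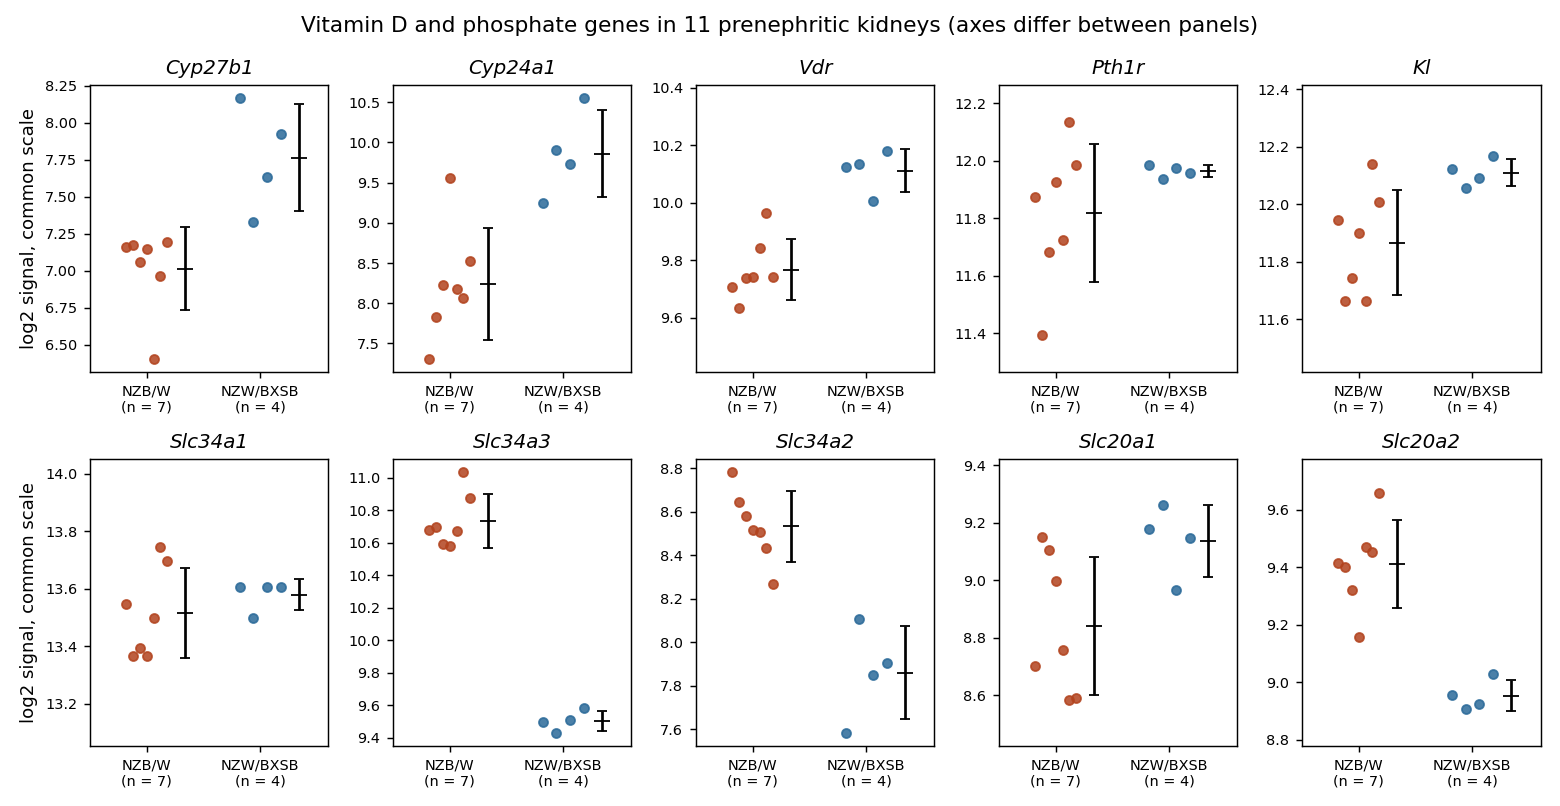
Log2 signal (vertical axis, common scale; each panel has its own axis) of the 10 genes in 7 NZB/W and 4 NZW/BXSB kidneys. Points are kidneys in replicate order, and the bar beside them is the mean ± SD. Slc34a3, Slc34a2 and Slc20a2 lay higher in every NZB/W kidney (Slc34a2 and Slc20a2 did not in the deposited values), Cyp27b1 and Vdr lower in every one, and the other 5 panels overlap.

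Both enzymes of active vitamin D were lower in NZB/W kidneys, and both varied widely from mouse to mouse. Cyp27b1 (Entrez 13115, chromosome 10), the activating enzyme, had a lowest, median and highest signal of 6.40, 7.14 and 7.19 in NZB/W kidneys. In NZW/BXSB replicates 1 to 4 it had 8.17, 7.33, 7.64 and 7.92. No NZB/W kidney reached the lowest NZW/BXSB kidney, and 6 of the NZB/W kidneys lay close together with replicate 5 below them. The mean was 7.01 ± 0.28 in NZB/W (n = 7), against 7.76 ± 0.36 in NZW/BXSB (n = 4; errors are SD), a difference of -0.75 ± 0.16 (SE, 95% interval -1.10 to -0.39, adjusted p = 0.00113), or 1.68-fold lower in NZB/W, where the fold is taken on the normalised signal. The difference was -1.43 in the deposited values.

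Cyp24a1 (Entrez 13081, chromosome 2), the degrading enzyme and itself a target of the vitamin D receptor, showed the largest decrease of the 10. Its lowest, median and highest signals were 7.31, 8.18 and 9.56 in NZB/W kidneys. The NZW/BXSB kidneys had 9.25, 9.91, 9.74 and 10.55. NZB/W replicate 4, at 9.56, was the only NZB/W kidney within the NZW/BXSB range. Cyp24a1 averaged 8.24 ± 0.69 in NZB/W (n = 7), against 9.86 ± 0.54 in NZW/BXSB (n = 4; errors are SD), which is 3.07-fold lower in NZB/W (-1.62 ± 0.34, 95% interval -2.34 to -0.90, adjusted p = 0.000715), and -2.32 in the deposited values. The spread of Cyp24a1 between mice of 1 strain was among the widest measured, with an SD at percentile 99.7 of all tested genes in NZB/W, against 99.8 in NZW/BXSB. Cyp27b1 stood at percentiles 95.5 and 99.3 in the same strains, where the median gene had an SD of 0.12 in NZB/W, against 0.08 in NZW/BXSB.

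The receptors and the co-receptor differed less. Vdr (Entrez 22337, chromosome 15), the receptor of active vitamin D, had a lowest, median and highest signal of 9.63, 9.74 and 9.97 in NZB/W kidneys and values of 10.12, 10.14, 10.01 and 10.18 in NZW/BXSB kidneys. The strains were separate, but by a gap of 0.040 between NZB/W replicate 6 and NZW/BXSB replicate 3. Vdr averaged 9.77 ± 0.11 in NZB/W, against 10.11 ± 0.08 in NZW/BXSB, 1.27-fold lower in NZB/W (-0.34 ± 0.06, 95% interval -0.48 to -0.21, adjusted p = 0.000272; -1.07 as deposited).

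Klotho (Kl, Entrez 16591, chromosome 5), the co-receptor through which the kidney responds to FGF23, was slightly lower in NZB/W. Its lowest, median and highest signals were 11.66, 11.90 and 12.14 in NZB/W kidneys, against 12.12, 12.06, 12.09 and 12.17 in NZW/BXSB kidneys. Only NZB/W replicate 6 lay within the NZW/BXSB range, and the other 6 were below it. The difference was -0.24 ± 0.09 (95% interval -0.43 to -0.06, adjusted p = 0.0228), 1.18-fold lower in NZB/W, from means of 11.87 ± 0.18 in NZB/W, against 12.11 ± 0.05 in NZW/BXSB (SD, n = 7 and n = 4). Without NZW/BXSB replicate 1 the adjusted p of Kl was 0.0522 (-0.24), and without NZW/BXSB replicate 4 it was 0.0614 (-0.22). The call was thus lost without either kidney, while the size of the difference changed little. The label of replicate 4 carries a code that differs from the code of replicates 1 to 3, with no meaning given. As deposited the difference was -0.95.

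Pth1r (Entrez 19228, chromosome 9), the receptor of parathyroid hormone, was not called. NZB/W kidneys had a lowest, median and highest signal of 11.39, 11.87 and 12.13, while the NZW/BXSB kidneys lay within 0.05 of each other, at 11.98, 11.94, 11.98 and 11.96. The groups overlapped, with NZB/W kidneys both above and below all NZW/BXSB kidneys. The SD of Pth1r was 0.24 in NZB/W, against 0.02 in NZW/BXSB, at percentiles 92.2 and 2.65 of all tested genes in those strains. Its difference was -0.15 ± 0.11 (95% interval -0.38 to 0.09, adjusted p = 0.247), and -0.85 in the deposited values, where it was called. Pth1r was called on the common scale too once NZB/W replicates 6 and 7 were left out (-0.24, adjusted p = 0.0412). The lowest Pth1r signal belonged to NZB/W replicate 2, the kidney in which the adrenal markers were low.

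The type II phosphate cotransporters divided. Slc34a3 (Entrez 142681, chromosome 2), which encodes NaPi-IIc, was higher in every NZB/W kidney, with a lowest, median and highest signal of 10.58, 10.68 and 11.04. The NZW/BXSB kidneys had 9.49, 9.43, 9.51 and 9.58. The lowest NZB/W kidney stood 0.996 log2 units above the highest NZW/BXSB kidney, the widest gap among the 10 genes. Slc34a3 averaged 10.73 ± 0.17 in NZB/W (n = 7), against 9.50 ± 0.06 in NZW/BXSB (n = 4; errors are SD), a 2.34-fold increase in NZB/W (1.23 ± 0.08, 95% interval 1.05 to 1.41, adjusted p = 2.16e-08). It was the only 1 of the 10 that was also called higher in the deposited values, by 0.51 (adjusted p = 3.78e-05), and the strains did not overlap there either. On the common scale the 7 proximal tubule markers had a median difference of 0.20, with 4 called higher and 2 lower in NZB/W. As deposited their median was -0.51, with 2 higher and 5 lower. Of all tested genes, 33.3% were higher and 36.1% lower on the common scale, against 5.56% and 84% as deposited. The part of these markers in the Slc34a3 difference was not tested.

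Slc34a1 (Entrez 20505, chromosome 13), which encodes NaPi-IIa, was not called on the common scale. Its lowest, median and highest signals were 13.37, 13.50 and 13.75 in NZB/W kidneys, and the NZW/BXSB kidneys had 13.61, 13.50, 13.61 and 13.61. The ranges overlapped, and the difference was -0.06 ± 0.08 (95% interval -0.23 to 0.11, adjusted p = 0.487). The interval bears only on the common scale, because the direction of Slc34a1 depended on the scaling. After centring each array on its median instead, Slc34a1 was higher in NZB/W by 0.17 (adjusted p = 0.0383), and in the deposited values it was lower (-0.52). It was also called lower on the common scale without NZB/W replicates 6 and 7 (-0.15, adjusted p = 0.0444).

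Slc34a2 (Entrez 20531, chromosome 5), which encodes NaPi-IIb, was higher in all 7 NZB/W kidneys on the common scale, though not in the deposited values. It had a lowest, median and highest signal of 8.27, 8.52 and 8.78 in NZB/W and values of 7.58, 8.11, 7.85 and 7.90 in NZW/BXSB. The gap between the strains was 0.16, and NZW/BXSB replicates differed more from each other than is usual, with an SD at percentile 95.6 of tested genes. The mean was 8.53 ± 0.16 in NZB/W (n = 7), against 7.86 ± 0.21 in NZW/BXSB (n = 4; errors are SD), a 1.59-fold increase in NZB/W (0.67 ± 0.10, 95% interval 0.45 to 0.89, adjusted p = 4.93e-05). In the deposited values the strains overlapped and the difference was -0.025 (adjusted p = 0.807), so the increase of Slc34a2 is one relative to the other genes of the array.

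The type III carriers moved in opposite directions on the common scale, while both were lower in NZB/W as deposited. Slc20a2 (Entrez 20516, chromosome 8), encoding PiT-2, had a lowest, median and highest signal of 9.16, 9.42 and 9.66 in NZB/W kidneys, and 8.95, 8.91, 8.92 and 9.03 in NZW/BXSB kidneys. Every NZB/W kidney was higher on this scale, and the kidneys overlapped in the deposited values. Slc20a2 averaged 9.41 ± 0.15 in NZB/W, against 8.95 ± 0.05 in NZW/BXSB, a 1.37-fold increase in NZB/W (0.46 ± 0.08, 95% interval 0.29 to 0.62, adjusted p = 0.00012), but it was lower in the deposited values (-0.26, adjusted p = 0.00457).

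Slc20a1 (Entrez 20515, chromosome 2), encoding PiT-1, had a lowest, median and highest signal of 8.58, 8.76 and 9.15 in NZB/W kidneys, against 9.18, 9.26, 8.96 and 9.15 in NZW/BXSB kidneys. The NZB/W kidneys fell into 4 below the NZW/BXSB range and 3 within it. The difference of -0.30 ± 0.11 (95% interval -0.54 to -0.05, adjusted p = 0.0323) was 1.23-fold lower in NZB/W, from means of 8.84 ± 0.24 in NZB/W, against 9.14 ± 0.13 in NZW/BXSB, and it was -1.01 as deposited. This was the weakest of the calls: it was lost when any 1 of NZB/W replicates 1, 5, 6 and 7 or NZW/BXSB replicates 1, 2 and 4 was left out, with adjusted p between 0.0527 and 0.096, and an exact two-sided permutation test of Slc20a1 alone gave p = 0.0636.

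**Figure D2:**
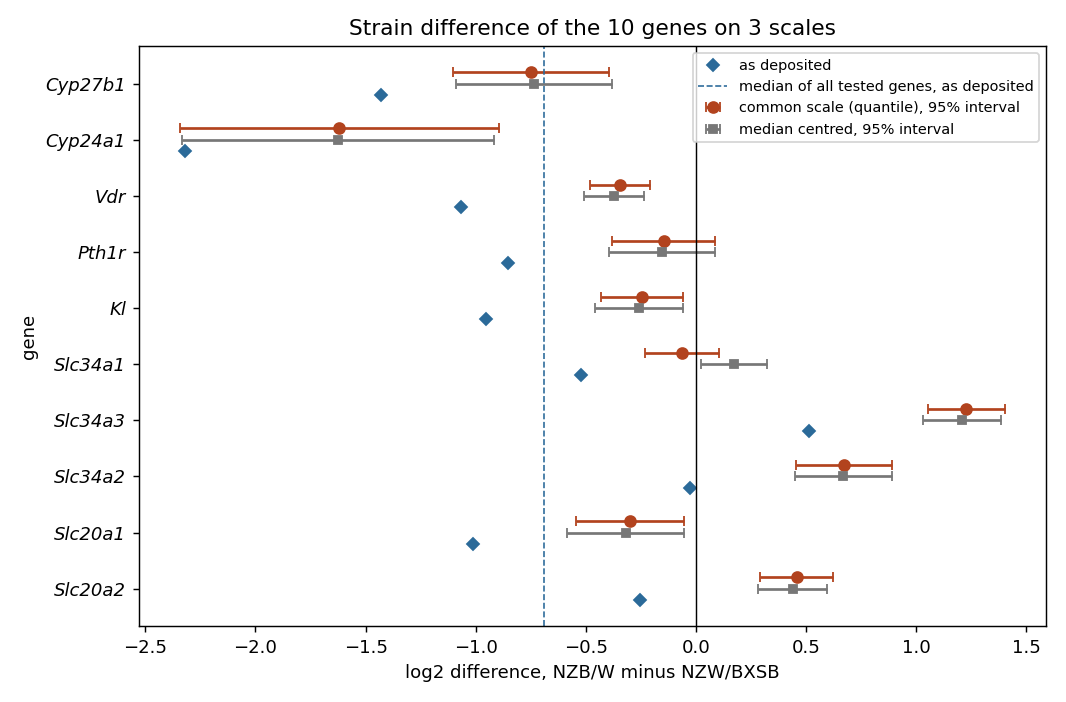
Difference of each of the 10 genes, NZB/W minus NZW/BXSB, in units of log2 signal (horizontal axis), on the common scale and after median centring (with 95% intervals) and as deposited (diamonds). The dashed line marks the median of all tested genes in the deposited values, -0.69, and Slc34a3 was the only gene right of 0 on all 3 scales.

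An offset shared by a whole array would cancel in the difference between 2 of these genes in the same kidney. Such differences were therefore also compared between the strains. The offset was not equal at all signal levels, so it cancels only in part. The lowest deposited signals were 3.47 to 3.58 in NZB/W, against 3.43 to 3.53 in NZW/BXSB. The highest were 14.37 to 14.53 in NZB/W, against 14.89 to 14.91 in NZW/BXSB. The 6 contrasts were picked after the values of the single genes were seen and restate them, so they are descriptions with no test. Levels of different genes' probes cannot be set against each other, and only the shift between strains is given. Slc34a3 minus Slc34a1, NaPi-IIc against NaPi-IIa, was higher in NZB/W by 1.03 in the deposited values and 1.29 on the common scale, and the kidneys of the strains overlapped on neither scale. Slc20a2 minus Slc20a1 was higher by 0.76 on either scale, again without overlap.

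The other 4 contrasts overlapped between the strains on both scales. Slc34a2 minus Slc34a1 shifted by 0.50 as deposited and by 0.74 on the common scale, and Slc34a3 minus Slc34a2 by 0.54 as deposited and 0.56 on the common scale. Cyp24a1 minus Vdr, a target against its receptor, was at -1.25 as deposited and -1.27 on the common scale. The contrast of the degrading with the activating enzyme, Cyp24a1 minus Cyp27b1, was at -0.89 as deposited and -0.87 on the common scale.

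The 7 NZB/W kidneys also allowed the genes to be compared with each other among mice of 1 strain. Of the 45 pairs of the 10 genes, 0 passed the adjusted threshold by exact two-sided permutation of Pearson's r or of Spearman's rho, and 6 had an unadjusted p below 0.05 for Pearson's r on the common scale, against 4 in the deposited values. The strongest pairs are therefore descriptions. Kl and Pth1r, 2 receptors for hormones that lower phosphate reabsorption, varied together, with r = 0.91 (exact permutation p = 0.00556, adjusted p = 0.0893) and rho = 0.90 (exact p = 0.00952). After the 2 kidneys farthest from the median Pth1r signal were left out, r was 0.92, and in the deposited values it was 0.93. Slc34a1 and Slc20a1 varied in opposite directions, with r = -0.93 (exact permutation p = 0.00516, adjusted p = 0.0893) and rho = -0.94 (exact p = 0.00476), and r was -0.94 without the 2 farthest kidneys and -0.82 as deposited.

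Slc34a1 and Slc34a3 gave r = 0.91 (exact permutation p = 0.00595, adjusted p = 0.0893) and rho = 0.72 (exact p = 0.0778), but r was 0.48 without the 2 farthest kidneys, which were replicates 6 and 7. That relation rested on those kidneys. Replicates 6 and 7 had the highest Slc34a1 (13.75 and 13.70), Slc34a3 (11.04 and 10.88) and Kl (12.14 and 12.01) and the lowest Slc20a1 (8.58 and 8.59) of the strain. They also had the highest mean of the proximal tubule markers, 11.97 and 11.998 against 11.67 to 11.79 in the other 5, the highest mean of the distal convoluted tubule markers, 10.22 and 10.10 against 9.76 to 9.94, and the lowest of the injury markers, 6.54 and 6.40 against 6.68 to 7.11. The part of segment content in these pairs was not tested. Without replicates 6 and 7, r was 0.81 for Pth1r and Kl. For Slc34a1 and Slc20a1 these were the same 2 farthest kidneys already left out above, so the r of -0.94 is not a second check.

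**Figure D3:**
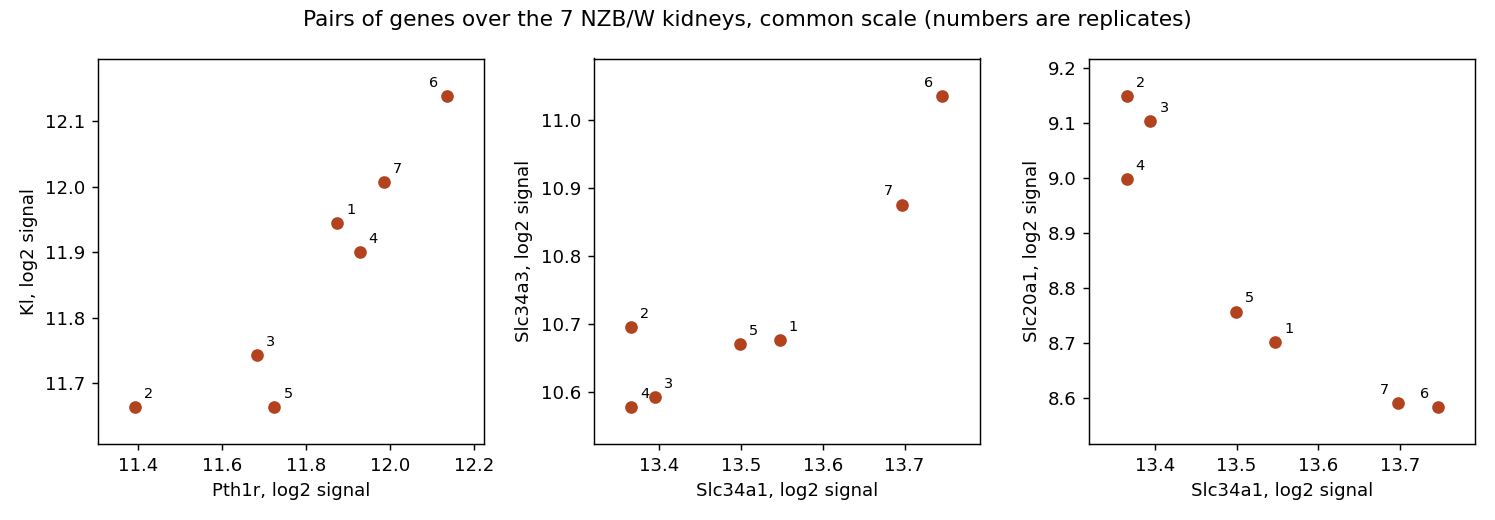
Log2 signals (common scale) of 3 pairs of genes over the 7 NZB/W kidneys, 1 point per kidney, numbered by replicate. Replicates 6 and 7 lie at the high end of Pth1r with Kl (r = 0.91) and of Slc34a1 with Slc34a3 (r = 0.91), and at the low end of Slc20a1 where Slc34a1 is high (r = -0.93).

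Over the same 7 kidneys, the genes most like a member were those with the highest Pearson's r among 13137 other genes above baseline in both strains, given here as the highest of many values over few kidneys and with no test. For Kl they were Eps8 (r = 0.98, rho = 0.95), an actin regulator, Rab36 (r = 0.98, rho = 0.99) and Npnt (r = 0.98, rho = 0.94), an extracellular matrix ligand of integrins. For Slc34a1 they included Cd8a (r = 0.99, rho = 0.94), a T cell co-receptor, and Itpripl1 (r = 0.99, rho = 0.99). Cyp24a1 was most like Tns1 (r = 0.97, rho = 0.82), which encodes a focal adhesion protein, and Krt15 (r = 0.97, rho = 1), a keratin gene. Chst11 (r = 0.95, rho = 0.89), which encodes a chondroitin sulfotransferase, came next. Cyp27b1 was most like D430019H16Rik (r = 0.98, rho = 0.89) and Isca2 (r = 0.97, rho = 0.93), a gene of iron-sulfur cluster assembly. Glud1, which encodes glutamate dehydrogenase, came next with r = 0.96 but rho = 0.68. For Cyp27b1 NZB/W replicate 5 lay apart from the other kidneys (6.40, with the next at 6.96). The part of that kidney in these r values was not tested.

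Genes that supply vitamin D or partner its receptor included the largest difference of the wider pathway. Of 9 on the list, 8 were tested (Cyp2r1, a vitamin D hydroxylase of liver, was not above baseline). In NZB/W 4 of them rose and 2 fell, near the background of 33.3% higher and 36.1% lower over all tested genes, and the median difference of the 8 was 0.22. In the deposited values 1 was called higher and 7 lower, with a median of -0.49, beside a background of 5.56% and 84% in those directions. Gc, the vitamin D-binding protein of plasma, averaged 10.90 ± 0.18 in NZB/W, against 8.63 ± 0.27 in NZW/BXSB, 4.83-fold higher in NZB/W (adjusted p = 2.28e-09), and it was the list's 1 gene called higher as deposited (1.55). Lrp2, megalin, the endocytic receptor that takes up filtered binding protein, averaged 13.03 ± 0.08 in NZB/W, against 12.56 ± 0.05 in NZW/BXSB (0.48, adjusted p = 3.6e-06), but was lower as deposited (-0.16). Rxra, a partner of the vitamin D receptor, was higher by 0.26 (adjusted p = 0.000764) and lower as deposited (-0.44). Cyp27a1, a mitochondrial sterol hydroxylase that can also act on vitamin D, was lower by either scale, with a difference of -0.46 (adjusted p = 3.2e-05) and -1.18 as deposited.

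Genes of vitamin D action and calcium transport differed in both directions. Each of the 6 tested genes was called, with 4 up and 2 down in NZB/W and a median of 0.44 (Trpv5 was not analysed here). The background shares were 33.3% higher and 36.1% lower. In the deposited values, with shares of 5.56% and 84%, none of the 6 was called higher and 2 were lower, and the median took the opposite sign (-0.23). S100g, the small calcium-binding protein calbindin-D9k, averaged 12.74 ± 0.21 in NZB/W, against 12.32 ± 0.06 in NZW/BXSB (0.43, adjusted p = 0.00152). As deposited its difference was -0.22 and was not called (adjusted p = 0.0948). Slc8a1, the sodium-calcium exchanger, was higher by 0.997 (adjusted p = 0.000128), a difference of 0.30 as deposited that was not called. Trpv6, an epithelial calcium channel, was lower (-0.42, adjusted p = 0.000254; -1.10 as deposited), as was Casr, the calcium-sensing receptor (-0.36, adjusted p = 0.00177; -1.05 as deposited). The mean of the distal convoluted tubule markers on the common scale lay at 9.76 to 10.22 in NZB/W kidneys and 9.54 to 9.71 in NZW/BXSB kidneys. As deposited the median difference of these 5 markers was -0.36, with 4 called lower and 0 higher. The part of these markers in the differences of the calcium genes was not tested.

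Among genes of FGF23 and parathyroid hormone signalling, Fgf23, Pth, Pthlh and Pth2r were not above baseline in either strain, and the 7 tested genes were all called, 3 higher and 4 lower with a median of -0.32, against 1 higher and 4 lower with a median of -1.02 as deposited. These counts stand beside 33.3% higher and 36.1% lower over all tested genes on the common scale, and 5.56% and 84% as deposited. Klb, the Klotho relative that serves other endocrine FGFs, averaged 6.13 ± 0.12 in NZB/W, against 5.23 ± 0.10 in NZW/BXSB (0.90, adjusted p = 9.48e-08; 0.34 as deposited). The FGF receptors did not move together. Fgfr2 was higher by 0.72 (adjusted p = 2.22e-07), a difference of 0.018 as deposited that was not called, and Fgfr4 was lower, with 7.10 ± 0.18 in NZB/W, against 7.93 ± 0.05 in NZW/BXSB (-0.83, adjusted p = 1.41e-06; -1.52 as deposited). Gnas, whose product couples PTH1R to cyclic AMP, was lower (-0.32, adjusted p = 1.48e-05; -1.02 as deposited).

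Of 13 genes for transporter scaffolds and other phosphate handling, 12 were tested, 3 were called higher, 4 lower and 5 not, beside 33.3% and 36.1% of all tested genes, and the median was 0.016. As deposited, 11 of the 12 were called lower and none higher with a median of -0.67, close to the 84% of all tested genes called lower there. Slc17a1 and Slc17a3, brush border and organic anion carriers first named as phosphate transporters, were both lower in NZB/W. Slc17a1 averaged 12.34 ± 0.13 in NZB/W, against 12.93 ± 0.01 in NZW/BXSB (-0.59, adjusted p = 4.06e-06; -1.22 as deposited), and Slc17a3 averaged 12.54 ± 0.25 in NZB/W, against 13.27 ± 0.05 in NZW/BXSB (-0.73, adjusted p = 7.32e-05; -1.31 as deposited). Ezr, ezrin, which ties membrane scaffolds to actin, was higher by 0.47 (adjusted p = 2.95e-06; -0.22 as deposited), and Galnt3, the enzyme that glycosylates FGF23, by 0.37 (adjusted p = 0.000302; -0.35 as deposited). Phex, an endopeptidase of bone, was not above baseline.

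**Figure D4:**
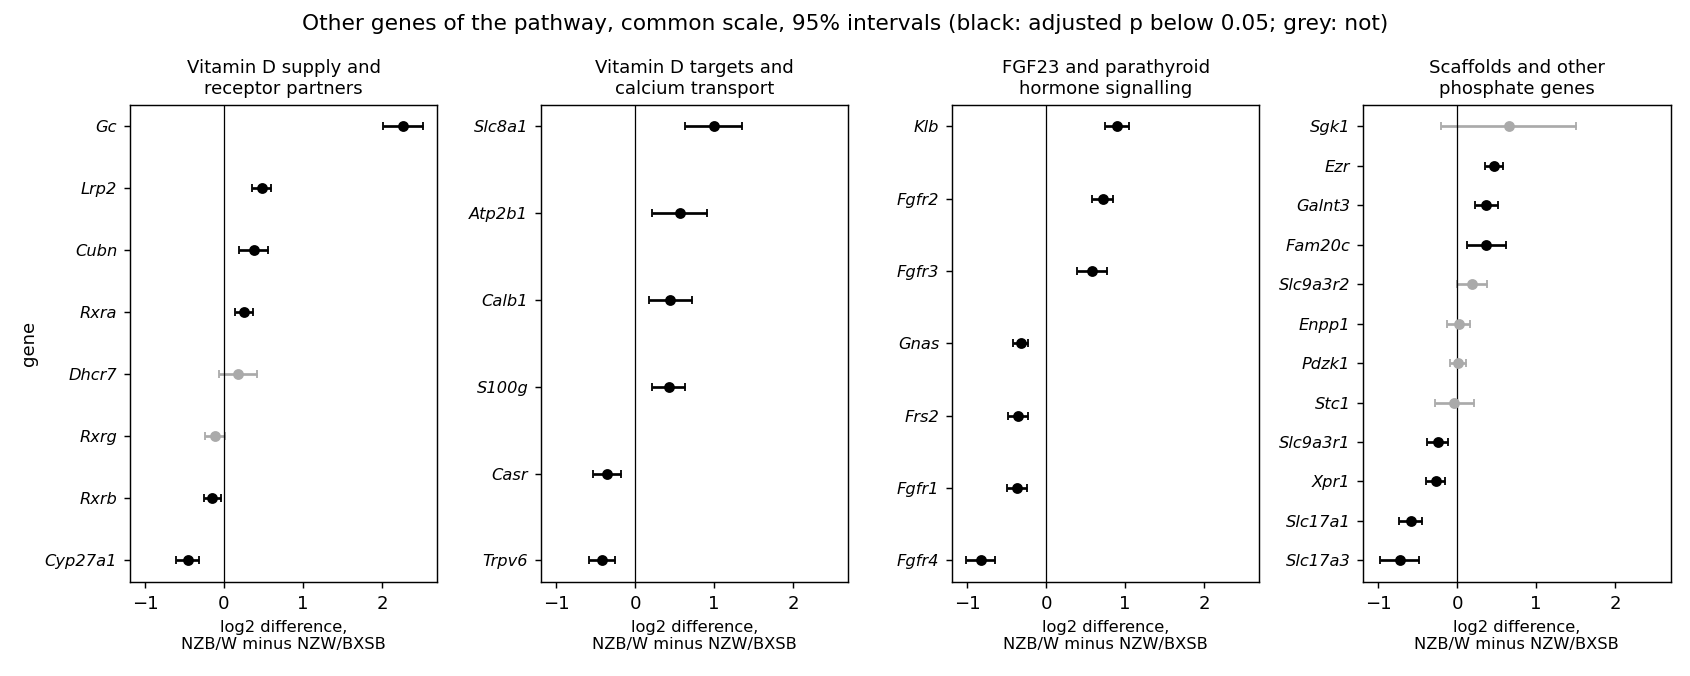
Differences of the tested genes of the 4 pathway lists, NZB/W minus NZW/BXSB, in units of log2 signal on the common scale (horizontal axis), with 95% intervals. Black points passed an adjusted p below 0.05 and grey points did not, and Gc stood farthest right at a 4.83-fold increase.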

How the data were processed

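Total RNA of 11 whole kidneys, each numbered as a separate sample in the labels, was hybridised as biotinylated cRNA to Affymetrix arrays, whose number limits the precision. The authors processed the arrays with RMA (version not given in the sources used here), regrouped probes by Entrez gene (BrainArray annotation version 10) and deposited log2 expression values, with a Yes or No call per gene and strain for expression above a baseline set on negative controls. Tests covered the 14419 genes with a Yes call in either strain. Names came from RefSeq (GRCm38.p6) for 16229 genes, and 246 kept the deposited symbol. Because the strains' arrays were offset, they were quantile normalised together, which would remove a true shift of most genes, and tested with limma 3.58.1 (lmFit, eBayes; R 4.3.3) with Benjamini-Hochberg adjustment over the 14419 genes. The study's methods state that arrays were normalised and corrected for batch as 1 set, but no batch or litter is named in the labels, and only a differing code in the label of NZW/BXSB replicate 4, of unstated meaning, sets a sample apart. The p-values weigh the difference between the strains against the spread between kidneys of 1 strain, a spread that may be technical.

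Genes named were the 10 members, up to 4 genes with the smallest p per pathway list, the 3 genes most like Cyp27b1, Cyp24a1, Kl and Slc34a1, and Xist and Ddx3y. Of these, 1 gene is not reported here. Members and lists were chosen with earlier results of these data known. Alternatives were the deposited values, median centring, other filters, an intensity trend with robust eBayes, kidneys left out, the replicate number as a block, exact permutation, the study's fold limits and, added after the data were seen, replicate 2 of both strains left out and contrasts within arrays. The fitting code was tested on simulated data. Nephritic kidneys were not analysed here.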

Additional observations from a re-analysis of the deposited data

Results flagged for a closer look

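In 52 groups of 4 or 7 kidneys (the 10 members and 16 named pathway genes in each strain), 6 had an extreme kidney set apart from the others by Dixon's test, where chance alone gives about 1 group in 20. Among the members, Cyp27b1 in NZB/W replicate 5 was the lowest of its strain at 6.40, with the next kidney at 6.96. Slc34a1 in NZW/BXSB replicate 2 was lowest at 13.50, while the other 3 shared the value 13.61, the same quantile rank. In the deposited values these 4 kidneys were at 13.89, 13.83, 13.88 and 13.85. S100g was lowest in NZB/W replicate 5 at 12.32 (next 12.68). Rxra was highest in NZB/W replicate 6 at 9.03 (next 8.90). NZB/W replicate 2 was the lowest kidney for Fgfr2 at 8.37 (next 8.57) and for Slc17a3 at 12.01 (next 12.53). No explanation of these values was tested.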

How the results depend on the processing

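The scaling changed most. In the deposited values 1 member was called higher and 8 lower, against 3 and 5 on the common scale. Called in the opposite direction there were Slc20a2 (-0.26), Lrp2 (-0.16), Rxra (-0.44), Ezr (-0.22) and Galnt3 (-0.35). Slc34a2 (-0.025) and S100g (-0.22, limma adjusted p = 0.0948) took the opposite sign there but were not called. Median centring turned Slc34a1 (0.17). With the study's fold limits 1 member was called lower and 2 higher. With 1 kidney left out at a time, 3 to 5 members were called lower, with 3 when NZW/BXSB replicate 1 or 4 was left out (Kl and Slc20a1 were lost), and 3 were called higher each time. Without NZB/W replicates 6 and 7 together, Slc20a1 was lost (-0.20) and Pth1r and Slc34a1 were called lower, which gave 6. The fits with no filter, with genes above baseline in both strains, with an intensity trend and robust eBayes, and without replicate 2 of both strains changed no call of the 10 members. Same-numbered kidneys of the strains did not in general deviate together (r of -0.13 to 0.28 over 4 pairs, 1 of them best with its own number). That pair was replicate 2 (r = 0.28), and the mean of the adrenal cortex markers was lowest in replicate 2 of both strains (5.05 in NZB/W and 7.41 in NZW/BXSB). Kidneys of different numbers reached a higher r, 0.39 for NZW/BXSB replicate 4 with NZB/W replicate 1. With the replicate block Pth1r was called (-0.24, adjusted p = 0.0494) and Slc20a1 was not (-0.15, adjusted p = 0.219), leaving 5 lower and 3 higher. An exact two-sided permutation test of each member gave the same side of 0.05 for 9 of the 10, with Slc20a1 the exception (p = 0.0636). Arrays are few, and the 4 members with the smallest differences (Pth1r, Kl, Slc34a1 and Slc20a1) each changed call under at least 1 of these settings. Calls of larger differences changed too. In the deposited values Slc34a2 was not called (limma adjusted p = 0.807), and Slc20a2 was called lower (adjusted p = 0.00457).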
